A study of Mus musculus with 4 samples.

Results

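The Ly6 genes described here are 7 members of the Ly6 cluster on mouse chromosome 15, namely Ly6c2, Ly6c1, Ly6a, Ly6a2, Ly6e, Ly6k and Ly6d. They were chosen by symbol, with earlier results of these data known, and all 7 were found among the 33696 genes of the count tables. Ly6c2 was among the genes with the lowest all-cell ratios in those earlier results, so its own ratios below are a description and not independent support. The study compared livers of male C57BL/6J mice fed, from 7 weeks of age, an FPC diet (fructose, palmitate, cholesterol and trans-fat). P-LC24 mice received 0.05% cholesterol and P-HC24 mice 1.25% cholesterol for 24 weeks, and the same cohorts were sampled again after 8 further weeks on 0.05% cholesterol, giving I-LC32 (0.05% throughout) and I-HC32 (1.25% to week 24, then 0.05%). Fine needle aspiration draws cells through a thin needle, so 1 mouse can be sampled at both ages, and the dissociated non-parenchymal cells were read by droplet 3′ single-cell RNA sequencing. Each condition was 1 library, pooled from 12 aspirates of 3 mice, and no group without the FPC diet was analysed here.

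With 1 library per condition there is no replicate check, so no p-value or standard error is given. Levels are UMIs (unique molecular identifiers, which count captured RNA molecules) scaled to the sum over the same cells (CPM, a gene's UMIs in every 1000000), with the 95% exact Poisson interval in parentheses. Log2 ratios carry the matching exact interval. Both intervals cover counting error only and not differences between mice or libraries. P-HC24 versus P-LC24 is called Prog and I-HC32 versus I-LC32 is called Int. The 2 comparisons share no library, but the I- libraries came from the cohorts sampled at week 24. The libraries held 7035 to 9828 barcodes, of which 4930 to 6978 cells were kept, with a median of 6298 to 8541 UMIs per cell, and 12 to 29 barcodes were shared between any pair of libraries.

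Ly6 proteins are small cysteine-rich surface proteins held in the membrane by a lipid (GPI) anchor, and antibodies to them have long been used to sort mouse blood cells. Ly6C, the product of Ly6c1 and Ly6c2, separates classical from patrolling monocytes and is carried by memory CD8 T cells. Ly6a encodes Sca-1, known from blood stem cells and activated lymphocytes, Ly6d encodes the B lineage antigen ThB, and several members, Ly6a, Ly6c2 and Ly6e among them, are known to respond to interferons. In the liver, Ly6C is mostly used to follow monocytes that enter from the blood.

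Cells were placed in 5 classes by the UMIs of marker genes that include no Ly6 gene, and 91.8% to 94.6% of kept cells fell in one. Sets of 4 values follow the order P-LC24, P-HC24, I-LC32, I-HC32 throughout. The classes held 3144, 4401, 4717 and 4772 B cells, 974, 1030, 1487 and 920 T cells, 193, 81, 112 and 51 NK cells, 148, 177, 188 and 88 monocytes and 69, 484, 95 and 666 macrophages. The macrophage class hardly carried the Kupffer cell marker Clec4f, which had 0 to 6 UMIs in a library. A UMI of Gata6, the transcription factor of large peritoneal macrophages, was present in 46.4% to 77.3% of its cells. Gata6 was among the markers of the macrophage gate and Clec4f was not, so the Gata6 share depends in part on the gate. NK cells (51 to 193) and monocytes (88 to 188) were few, so their shares and levels are known less precisely than those of B and T cells.

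The 7 genes split by cell class. Ly6c2 was high in monocytes, NK cells and T cells, Ly6c1 was, among the classes, found almost only in T cells, Ly6a2 in monocytes and NK cells, Ly6a and Ly6d chiefly in B cells, Ly6k in B and T cells, and Ly6e in every class. Levels are compared here between cells for a given gene and never between genes, because 3′ counts depend on how well each transcript end is captured. The lowest and highest levels over the 4 libraries are set side by side in the plot of levels by class.

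**Figure D1:**
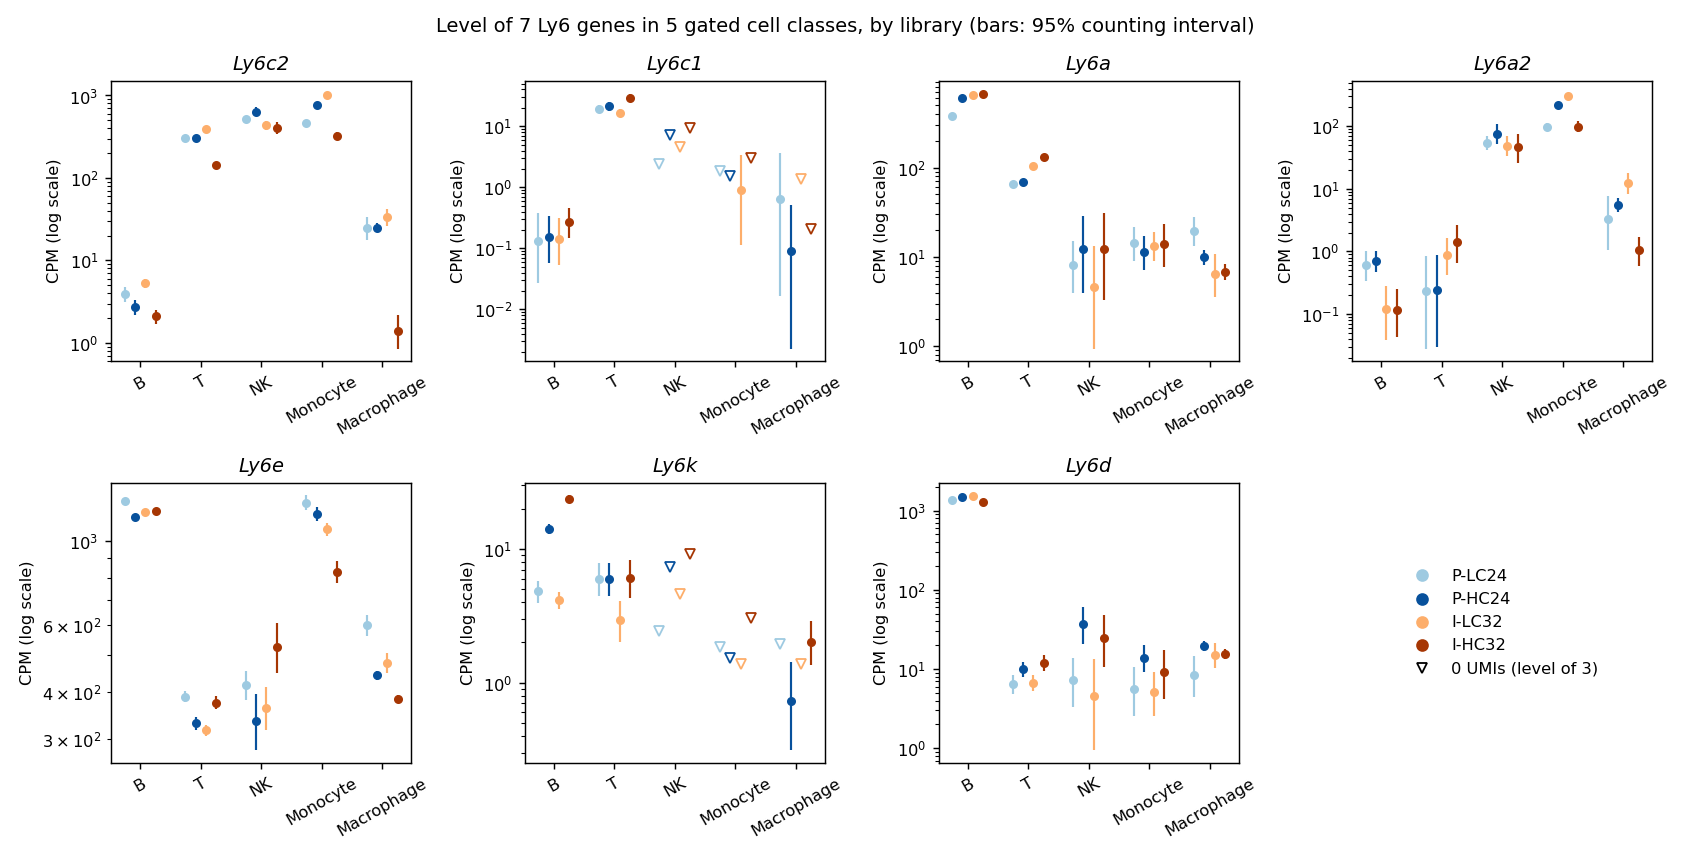
Level of each of the 7 genes in 5 gated cell classes, in CPM within the class (log scale). Points are the 4 libraries (light blue P-LC24, dark blue P-HC24, light orange I-LC32, brown I-HC32), bars are 95% counting intervals, and open triangles mark 0 UMIs, drawn at the level that 3 UMIs would have. Ly6c2 of T cells is lowest in I-HC32 at 142 CPM, and Ly6k of B cells is higher in P-HC24 and I-HC32 than in the other 2 libraries.

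All 7 genes lie close together on chromosome 15 (GRCm39) and, with the exception of Ly6e, are read from the minus strand. By GENCODE, Ly6d (ENSMUSG00000034634) spans 74633902 to 74635597, Ly6k (ENSMUSG00000044678) 74668723 to 74672029, Ly6e (ENSMUSG00000022587) 74826860 to 74847454, Ly6a (ENSMUSG00000075602) 74863840 to 74869880, Ly6c1 (ENSMUSG00000079018) 74915847 to 74920686, Ly6c2 (ENSMUSG00000022584) 74980003 to 74988467 and Ly6a2 (ENSMUSG00000121499) 75002080 to 75007039. Ly6a2 is annotated as a long non-coding RNA and overlaps a transcribed pseudogene of the same name, while the other 6 are protein-coding. Ly6c1 and Ly6c2 are near copies, with 384 of 393 coding bases identical. Their first coding exons, which encode the start of the signal peptide, hold 6 of the 9 differences and are shown because the pair can best be told apart there within the coding sequence. Capitals mark the bases that differ. Positions are on GRCm39, minus strand, at chr15:74920291-74920360 for Ly6c1 and chr15:74983447-74983516 for Ly6c2.
Ly6c1: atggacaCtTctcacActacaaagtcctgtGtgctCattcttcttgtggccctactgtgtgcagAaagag
Ly6c2: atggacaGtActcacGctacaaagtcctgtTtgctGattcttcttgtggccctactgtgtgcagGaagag
3′ reads come mostly from the transcript end. Of the windows of 50 bases in the last 500 bases of the Ly6c2 transcript, 20.6% occur unchanged in another gene of the cluster, nearly all in Ly6c1, and 8.52% of windows of 90 bases do. For Ly6c1 the shares were 20% and 8.52%. For Ly6a, Ly6e, Ly6k and Ly6d none of the windows was shared with the 28 other cluster genes searched. None was for Ly6a2 either, but its search left out the overlapping pseudogene of the same name. Counts of Ly6c1 and Ly6c2 are thus less certain than those of Ly6a, Ly6e, Ly6k and Ly6d, and for Ly6a2 the search cannot tell.

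Over all kept cells, Ly6c2 stood at 128 (124 to 131) CPM in P-LC24 against 79.6 (77.4 to 81.8) in P-HC24, and 125 (122 to 128) in I-LC32 against 22.3 (21.2 to 23.3) in I-HC32. The I-HC32 library was far below the other 3. The log2 ratio was −0.68 (−0.74 to −0.62) in Prog and −2.49 (−2.57 to −2.41) in Int. A level over all cells moves both with how many cells of each kind were captured and with the level inside them. CD8 T cells held 40.7%, 40.1%, 43.2% and 37.5% of the Ly6c2 UMIs and monocytes 15.4%, 29.4%, 28.3% and 18.9% of them. With the class levels of P-LC24 and only the class shares of P-HC24, the all-cell level would be 77.0 CPM, close to the 79.6 measured. With the shares of P-LC24 and the levels of P-HC24 it would be 133 CPM. In Int, the shares of I-HC32 alone gave 60.0 CPM and the levels of I-HC32 alone 52.9 CPM, where 125 was measured in I-LC32 and 22.3 in I-HC32. Thus the all-cell difference lay in the shares in Prog and in both in Int.

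**Figure D2:**
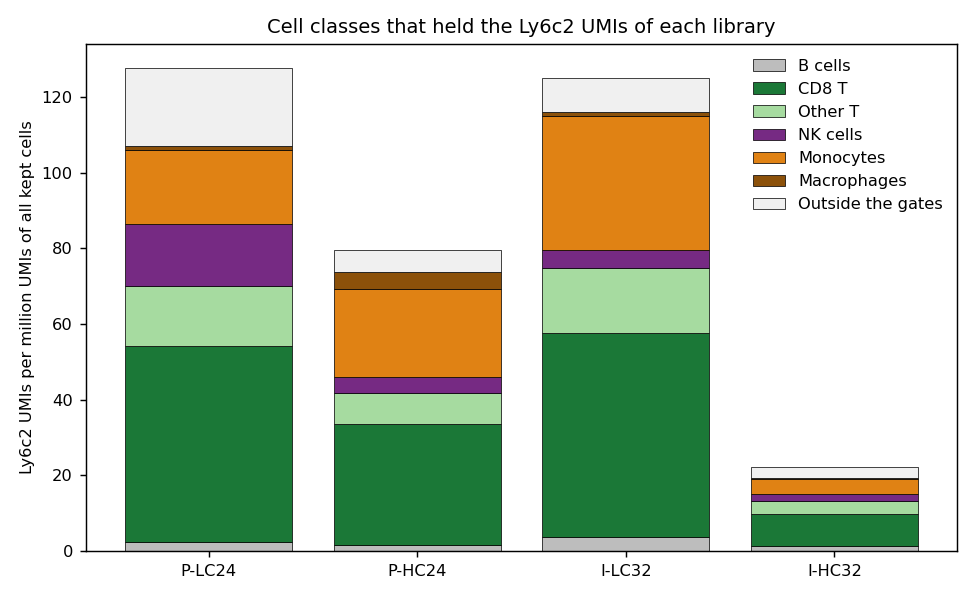
Ly6c2 level over all kept cells of each library (y axis, CPM, linear from 0), stacked by the gated class of cells that held them. CD8 T cells and monocytes made up most of each bar, and the I-HC32 bar reaches 22.3 CPM.

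Within T cells, Ly6c2 stood at 303 (291 to 315) CPM in P-LC24 against 308 (296 to 320.2) in P-HC24, and 389 (377 to 400.3) in I-LC32 against 142 (133 to 151) in I-HC32. P-LC24 and P-HC24 overlapped, I-LC32 was the highest and I-HC32 the lowest. Its log2 ratio in T cells was 0.02 (−0.06 to 0.10) in Prog and −1.45 (−1.56 to −1.35) in Int. A Ly6c2 UMI was seen in 38.8%, 35.6%, 40.3% and 21.6% of T cells, at median depths of 8364, 7552, 6913 and 6328 UMIs, and in 26.4%, 24.5%, 28.2% and 13.2% when every cell was thinned to 2000 UMIs. B cells, which should lack the gene, had a UMI in 1.62%, 1.68%, 1.89% and 1.76% of cells at median depths of 5814, 6592, 6761 and 8608, and 2.09 to 5.27 CPM. In I-LC32 B cells 5 cells held 46.2% of the 221 UMIs and in P-LC24 5 held 41.6% of 89, so the share of cells, and not the level, serves as the background. Holding the T cell subsets at their I-LC32 shares left 189 CPM, and holding their levels left 330.3 CPM, so that most of the Int difference lay inside the subsets. The mitochondrial limit moved the Prog value: at 5% the log2 ratio was −0.41, as P-HC24 kept 578 of its 1030 T cells and their level was 220.2 CPM.

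Among CD8 T cells, those with Ccl5 and without Pdcd1, the profile of memory cells, were the main carriers. They held 599.9 (570.0 to 631) CPM in P-LC24 against 628 (598 to 659) in P-HC24, and 621 (597 to 645) in I-LC32 against 362 (331 to 395) in I-HC32, with 248, 278, 483 and 161 cells. Again the first 3 libraries lay together, with a log2 ratio of 0.07 (−0.04 to 0.17) in Prog and −0.78 (−0.92 to −0.64) in Int. The share of these cells with a Ly6c2 UMI was 73.4%, 70.5%, 70.0% and 58.4%, and the median count in cells that had one was 7, 7, 6 and 4 UMIs. Cells with both Ccl5 and Pdcd1, the receptor PD-1 of chronically stimulated T cells, varied more between libraries than the other CD8 gates, at 92.7 (70.4 to 119.8) CPM in P-LC24 against 289 (212 to 384) in P-HC24, and 589.8 (535 to 648) in I-LC32 against 166 (134 to 203) in I-HC32. They were few in P-HC24 (22 cells, against 93, 90 and 86 in the others). Their log2 ratio was 1.64 (1.05 to 2.22) in Prog and −1.83 (−2.17 to −1.51) in Int. Naive-gated CD8 T cells, gated on naive T cell markers such as Ccr7 and Lef1 and no Ccl5, held less, at 119 CPM in P-LC24 against 107 in P-HC24, and 108 in I-LC32 against 57.6 in I-HC32, and were also lowest in I-HC32, at −0.90 (−1.47 to −0.37) in Int. CD4 T cells held 3.52 to 43.3 CPM on 4 to 73 UMIs. Of 12 effector and memory T cell genes, all compared in CD8 T cells, 1 was at least 1.2-fold higher and 0 lower in Int, where 23.8% and 11.4% of all genes compared in CD8 T cells were, with Ccl5 at −0.14 (−0.16 to −0.12) and Nkg7, a granule protein of killer cells, at 0.14 (0.08 to 0.20). In Prog 8 of them were lower and 1 higher, where 47.1% and 10.8% of all genes were, and Ccl5 stood at −0.51 (−0.54 to −0.49). Ccl5 set the gates of the CD8 subsets above, but these ratios are for all CD8 T cells, which it did not gate. They are a description.

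In NK cells, Ly6c2 stood at 512 (472 to 553) CPM in P-LC24 against 637 (562 to 719) in P-HC24, and 434 (385 to 487) in I-LC32 against 405 (339 to 480.0) in I-HC32. The intervals of P-LC24, I-LC32 and I-HC32 overlapped, and P-HC24 lay above them. NK cells gave a log2 ratio of 0.32 (0.10 to 0.53) in Prog, but −0.01 in UMIs per cell without scaling to depth, and −0.10 (−0.41 to 0.20) in Int. NK cells with Klrg1 or Itgam, which mark mature NK cells, held 659.9 CPM in P-LC24 against 681 in P-HC24, and 558 in I-LC32 against 836 in I-HC32. Those with neither held 240.2 CPM in P-LC24 against 569.9 in P-HC24, and 309 in I-LC32 against 80.6 in I-HC32 on 67, 33, 51 and 26 cells, and moved in opposite directions, with log2 ratios of 1.25 (0.83 to 1.66) and −1.94 (−2.83 to −1.15).

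Monocytes held 469 (437 to 504) CPM in P-LC24 against 757 (719 to 797) in P-HC24, and 1005 (964 to 1048) in I-LC32 against 327 (292 to 364) in I-HC32. The highest level was that of I-LC32 and the lowest that of I-HC32, and no pair of intervals overlapped. Monocytes gave a log2 ratio of 0.69 (0.56 to 0.82) in Prog and −1.62 (−1.80 to −1.45) in Int. The share of monocytes with a UMI was 46.6%, 44.6%, 71.8% and 35.2%, or 29.0%, 32.6%, 59.4% and 22.7% at 2000 UMIs per cell. The Ccr2 gate for classical monocytes and the Ace and Treml4 gate for patrolling monocytes, neither of which uses a Ly6 gene, separated the level widely. Classical-gated monocytes held 937 (853 to 1028) CPM in P-LC24 against 1056 (989 to 1127) in P-HC24, and 1083 (1025 to 1143) in I-LC32 against 567 (497 to 645) in I-HC32 and patrolling-gated ones 9.16 to 30.6 CPM. In classical-gated cells the log2 ratio was 0.17 (0.01 to 0.34) in Prog and −0.93 (−1.14 to −0.73) in Int, nearer to 0 than in the class as a whole. The I-HC32 value rests on 29 cells, 5 of which held 63.7% of the UMIs. Monocytes that met neither or both gates held 452, 864, 1098 and 219 CPM. In Prog, holding the 3 kinds of monocyte at their P-LC24 shares gave 674 CPM, and holding their levels gave 568 CPM, where 757 was measured in P-HC24. In Int, holding them at their I-LC32 shares left 398 CPM, and holding their levels left 879 CPM. Genes of neutrophils moved with the week of sampling. The 6 markers summed to 2358 and 3065 CPM in the monocytes of P-LC24 and P-HC24, with none at 0, and to 213 and 197 CPM in those of I-LC32 and I-HC32, with 2 and 1 at 0. Haemoglobin genes, at 88.7 CPM in I-HC32 monocytes and 2562 to 4266 CPM in the others, moved with the Int comparison. The part of either in the Ly6c2 values was not tested.

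Macrophages held 24.7 CPM in P-LC24 against 25.0 in P-HC24, and 33.6 in I-LC32 against 1.40 in I-HC32, and a few cells carried it. In P-HC24, 20 of 484 macrophages had a UMI and 5 of them held 68.5% of the 276 UMIs, while in I-HC32 5 of 666 held all 20. The log2 ratio was 0.02 (−0.48 to 0.55) in Prog and −4.59 (−5.38 to −3.86) in Int, with intervals that count UMIs and not the few cells behind them.

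**Figure D3:**
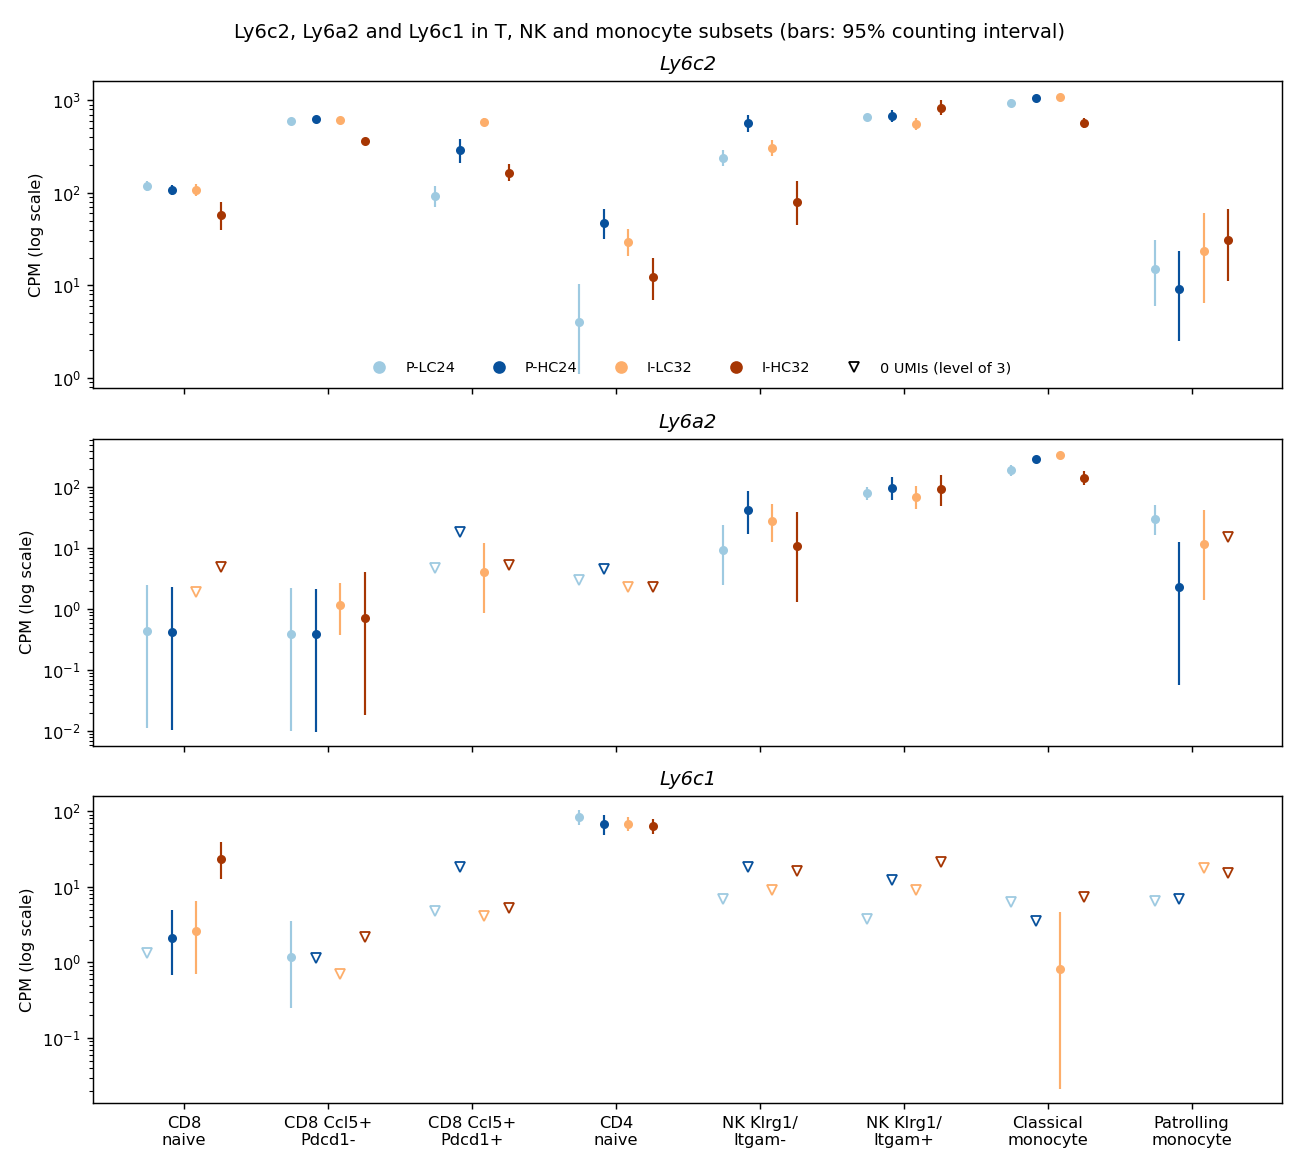
Ly6c2, Ly6a2 and Ly6c1 in 8 gated subsets of T cells, NK cells and monocytes (CPM, log scale). Points are the 4 libraries in the colours given in the key, bars are 95% counting intervals, and open triangles mark 0 UMIs at the level of 3 UMIs. Ly6c2 is high in Ccl5+ Pdcd1- CD8 T cells and classical monocytes, and varies between libraries in Ccl5+ Pdcd1+ CD8 T cells. Ly6a2 is high in classical monocytes and NK cells but not in CD8 T cells, and Ly6c1 in naive CD4 T cells.

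Ly6c1 followed another pattern than its near copy. In T cells as a class it stood at 19.4 (16.6 to 22.6) CPM in P-LC24 against 21.1 (18.1 to 24.5) in P-HC24, and 16.7 (14.4 to 19.3) in I-LC32 against 29.5 (25.4 to 34.0) in I-HC32. I-HC32 was the highest, with log2 ratios of 0.12 (−0.19 to 0.44) in Prog and 0.82 (0.52 to 1.12) in Int. With the shares of the T cell subsets held, the Int value was 0.37, and with their levels held it was 0.58. Over all cells the log2 ratio was −0.35 (−0.64 to −0.06) in Prog, but 0.29 at a mitochondrial limit of 5%, and 0.59 (0.34 to 0.84) in Int. Naive-gated CD4 T cells held 83.3 (66.3 to 103) CPM in P-LC24 against 66.8 (48.5 to 89.6) in P-HC24, and 68.3 (54.7 to 84.1) in I-LC32 against 63.1 (50.2 to 78.3) in I-HC32, on 44 to 88 UMIs, and all 4 intervals overlapped. The log2 ratio was −0.32 (−0.88 to 0.23) in Prog and −0.11 (−0.57 to 0.34) in Int. A UMI was present in 32.0%, 24.7%, 22.6% and 18.7% of these cells. All CD4 T cells together held 89, 44, 91 and 85 of the 167, 173, 189 and 189 Ly6c1 UMIs of T cells, so many lay elsewhere. T cells with no Cd4 or Cd8 UMI had a Ly6c1 UMI in 30, 45, 37 and 36 cells, against 43, 23, 46 and 37 CD4 T cells. In Ccl5+ Pdcd1- CD8 T cells, where Ly6c2 was high, Ly6c1 had 3 UMIs in P-LC24 and 0 in each of the other 3 libraries. No Ly6c1 UMI was found in any of the 193, 81, 112 and 51 NK cells, where a count of 0 limits the share of cells with a UMI, though not the share expressing the gene, to 1.55%, 3.70%, 2.68% and 5.88%. Monocytes had 2 UMIs in I-LC32 and 0 in the other 3. Naive-gated CD8 T cells had 0, 5, 4 and 14 UMIs, which made 23.0 (12.6 to 38.7) CPM in I-HC32. Of the naive-gated CD4 T cells with a Ly6c1 UMI, 41, 23, 44 and 35, a Ly6c2 UMI was also found in 1, 1, 2 and 0. Ly6c2 was rare in this gate as a whole, with a UMI in 2 of 128, 6 of 93, 11 of 195 and 5 of 187 cells. The small overlap therefore does not show that the 2 genes avoid each other.

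Ly6c1 also appeared in cells outside the 5 classes. Of these, 3 of 402, 9 of 359, 10 of 379 and 41 of 422 cells had a Ly6c1 UMI, holding 7, 49, 14 and 193 UMIs. The I-HC32 library had the most, and its 193 UMIs were more than the 85 of all its CD4 T cells. In I-HC32, 40 of the 41 cells had at least 3 T cell marker UMIs and fell outside the T cell class because 26 of them were over the limit on monocyte markers, 25 from Ccr2 alone, 11 over that on B cell markers and 4 over that on macrophage markers. Ccr2, a chemokine receptor that monocytes and activated T cells share, thus kept most of them out of the T cell class. They held UMIs of Gata3, the factor of type 2 lymphocytes, in 35 of 41 cells and of Il7r, the interleukin 7 receptor, in 39. Of the I-HC32 CD4 T cells with a Ly6c1 UMI, 35.1% had Gata3 and 100% had Il7r, so Il7r did not set the 41 cells apart. Rora had a UMI in 7 of the 41, against 21.6% of those CD4 T cells and 32.5% of T cells with no Cd4, Cd8 or Ly6c1 UMI. None of the 41 cells had a UMI of an endothelial marker other than Pecam1, although liver endothelium is known for Ly6c1. Their median of 13064 UMIs was above the 6328 of I-HC32 T cells. Cd79a and Cd74, genes of B and antigen-presenting cells, had a UMI in 34.1% and 68.3% of them, against 6.95% and 43.3% of naive-gated CD4 T cells. Cd79a is a marker of the B cell gate, so T cells had to be low in it. In the other I-HC32 cells outside the classes the shares were 31.5% and 71.1%. The part of mixed droplets in these values was not tested. The genes named here were picked after their values were seen. The Ly6c1 values of T cells above leave these cells out, but the all-cell values include them. Cells outside the classes held 3.93%, 21.4%, 6.64% and 48.7% of all Ly6c1 UMIs, so the all-cell Int ratio depends on them.

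Ly6a2 followed Ly6c2 in monocytes and NK cells but not in T cells. Monocytes held 97.9 (83.2 to 114) CPM in P-LC24 against 215 (195 to 237) in P-HC24, and 306 (284 to 331) in I-LC32 against 98.8 (80.2 to 120.4) in I-HC32. P-LC24 and I-HC32 lay together and the other 2 libraries above them. For Ly6a2 in monocytes the log2 ratio was 1.14 (0.87 to 1.41) in Prog and −1.63 (−1.95 to −1.33) in Int. Classical-gated monocytes held 190.0 CPM in P-LC24 against 289 in P-HC24, and 336 in I-LC32 against 143 in I-HC32, and NK cells 54.7 CPM in P-LC24 against 75.6 in P-HC24, and 48.9 in I-LC32 against 46.0 in I-HC32. In T cells the level was 0.232 to 1.40 CPM, and in macrophages 1.05 to 12.4. For every 100 Ly6c2 UMIs there were 20.8 (17.4 to 24.8), 28.4 (25.4 to 31.7), 30.5 (27.9 to 33.3) and 30.2 (23.9 to 38.0) Ly6a2 UMIs in monocytes. In NK cells there were 10.7 (8.18 to 13.8), 11.9 (7.91 to 17.3), 11.3 (7.56 to 16.3) and 11.4 (6.18 to 19.4). CD8 T cells, with more Ly6c2 UMIs than either, had 0.100 (0.0121 to 0.362), 0.0996 (0.0121 to 0.360), 0.240 (0.104 to 0.473) and 0.156 (0.00394 to 0.871), so the ratio differed between cell types within each library. Of the monocytes with a Ly6a2 UMI, 39 of 44, 65 of 65, 110 of 111 and 22 of 22 also had one of Ly6c2.

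The promoters of Ly6a2 and Ly6c2 are nearly the same, although their expression parted in T cells, and are shown for that reason. Over the 250 bases before each start they are 94.5% identical, with 14 differences, whereas those of Ly6c2 and Ly6c1 are 69.2% identical. Capitals mark the bases without an identical partner in the other sequence. Positions are on GRCm39, minus strand, at chr15:74983828-74984077 for Ly6c2 and chr15:75006985-75007234 for Ly6a2.
Ly6c2 promoter: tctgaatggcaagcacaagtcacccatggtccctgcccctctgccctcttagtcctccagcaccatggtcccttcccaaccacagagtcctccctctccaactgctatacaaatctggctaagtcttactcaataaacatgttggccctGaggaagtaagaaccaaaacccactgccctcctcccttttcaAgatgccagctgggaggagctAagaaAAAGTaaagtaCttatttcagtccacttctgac
Ly6a2 promoter: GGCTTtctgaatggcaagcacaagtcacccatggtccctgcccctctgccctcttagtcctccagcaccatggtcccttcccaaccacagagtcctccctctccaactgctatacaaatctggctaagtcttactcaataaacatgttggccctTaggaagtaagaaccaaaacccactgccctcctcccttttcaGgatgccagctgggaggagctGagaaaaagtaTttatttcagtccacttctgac
Neither holds the core of the interferon-stimulated response element (GAAA, any 2 bases, GAAA) or the GAS motif (TTC, any 3 bases, GAA) on either strand. Among the 7 members only Ly6d had the first, 200 bases before its start, and only Ly6k the second, 132 bases before its start. Of the 21770 promoters of this length searched, 3.32% hold the first and 7.7% the second. A match is a description and not a site.

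Ly6a, which encodes Sca-1, was highest in B cells among the 5 classes, at 378 (370.5 to 386) CPM in P-LC24 against 598 (590.4 to 606) in P-HC24, and 652 (645 to 660.1) in I-LC32 against 662 (655 to 669) in I-HC32. P-LC24 lay below the other 3. For Ly6a in B cells the log2 ratio was 0.66 (0.62 to 0.70) in Prog and 0.02 (0.00 to 0.04) in Int. A UMI was present in 63.9%, 77.5%, 79.2% and 84.7% of B cells, or in 38.2%, 54.3%, 56.8% and 60.8% at 2000 UMIs per cell. B-1-gated cells, which carry Bhlhe41, Zbtb32 or Cd9 and no Fcer2a, held more than follicular-gated cells, which carry Fcer2a. The B-1-gated cells held 611 (591 to 630.3) CPM in P-LC24 against 737 (724 to 750.4) in P-HC24, and 848 (835 to 861) in I-LC32 against 754 (744 to 764) in I-HC32, with log2 ratios of 0.27 (0.22 to 0.33) and −0.17 (−0.20 to −0.14). Follicular-gated cells held 260.1 (250.3 to 270.2) CPM in P-LC24 against 358 (345 to 371) in P-HC24, and 363 (351 to 375) in I-LC32 against 383 (368 to 398) in I-HC32, with log2 ratios of 0.46 (0.38 to 0.54) and 0.08 (0.00 to 0.15). B-1-gated cells were 434 of 3144 B cells in P-LC24 and 1177 of 4401 in P-HC24. With the P-LC24 shares of the B cell gates held, the Prog log2 ratio was 0.46, and with the levels held it was 0.22.

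In T cells, Ly6a stood at 65.7 (60.4 to 71.3) CPM in P-LC24 against 68.2 (62.6 to 74.1) in P-HC24, and 104 (98.1 to 110.0) in I-LC32 against 130.3 (122 to 139) in I-HC32. Both week 32 libraries were above both week 24 libraries. The log2 ratio was 0.05 (−0.12 to 0.22) in Prog and 0.33 (0.20 to 0.46) in Int. With the shares of the T cell subsets held, the Int log2 ratio was −0.01, and with their levels held 0.23. CD4 T cells, where Sca-1 is known from activated cells, held 180.4 (157 to 207) CPM in P-LC24 against 168 (140.2 to 199) in P-HC24, and 179.5 (159.9 to 201) in I-LC32 against 228 (206 to 253) in I-HC32, and CD8 T cells 35.6 (31.0 to 40.8) CPM in P-LC24 against 34.4 (29.7 to 39.7) in P-HC24, and 83.9 (77.2 to 91.1) in I-LC32 against 64.1 (54.8 to 74.5) in I-HC32. Within CD8 T cells the subsets went apart in Int, with log2 ratios of 1.39 (0.73 to 2.06) in the naive gate, −1.0 (−1.42 to −0.60) in Ccl5+ Pdcd1- cells and −1.10 (−1.56 to −0.67) in Ccl5+ Pdcd1+ cells. NK cells, monocytes and macrophages held 4.58 to 19.5 CPM.

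**Figure D4:**
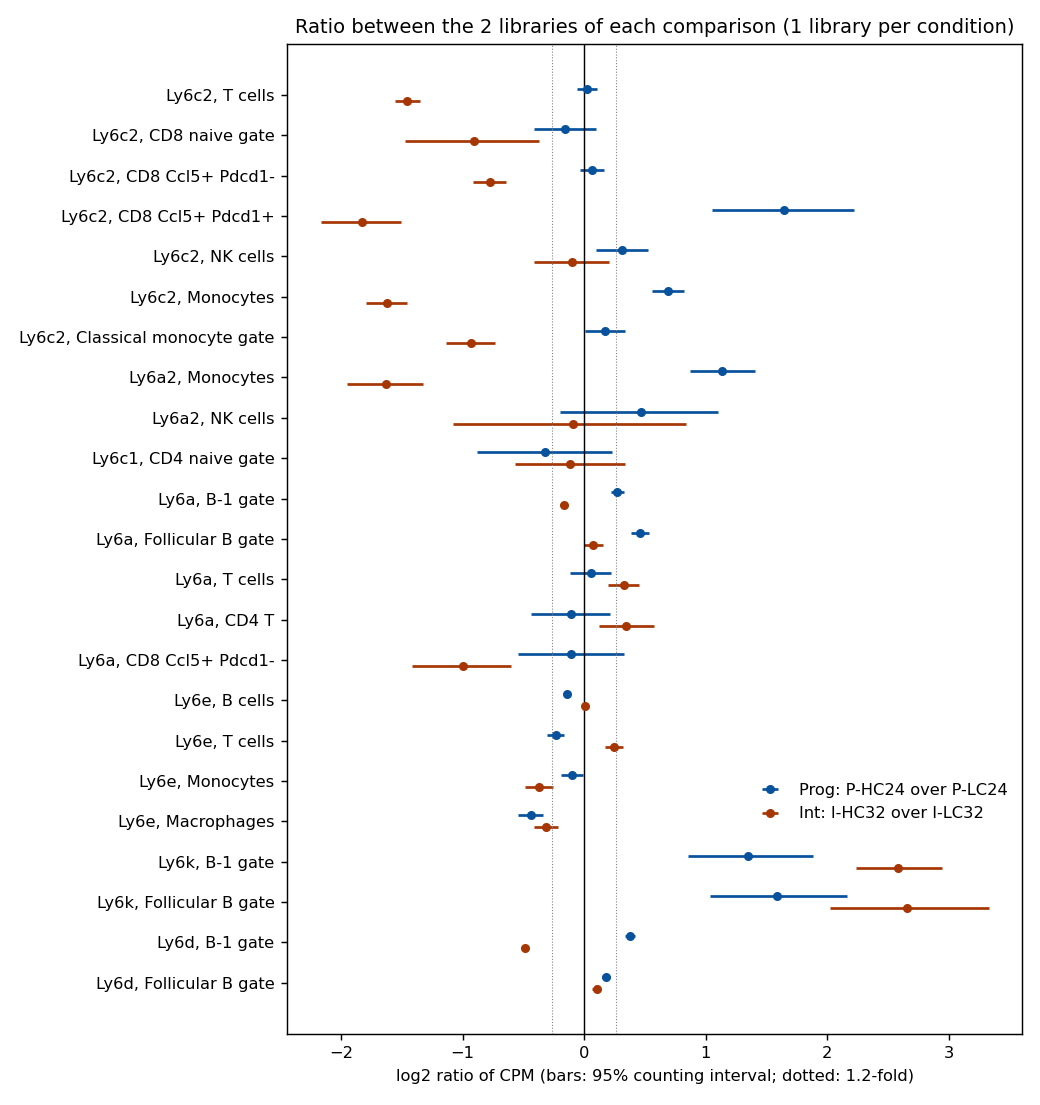
Log2 ratio of CPM (x axis, with 0 and 1.2-fold marked) of a gene in a class or gate (rows), for Prog (P-HC24 over P-LC24) and Int (I-HC32 over I-LC32). Points are ratios and bars 95% exact counting intervals, with 1 library per condition. Ly6c2 and Ly6a2 of monocytes lie on the right in Prog and on the left in Int.

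Ly6e, a broadly expressed member, was found in every class. B cells held 1277 CPM in P-LC24 against 1161 in P-HC24, and 1195 in I-LC32 against 1204 in I-HC32, a narrow range, with log2 ratios of −0.14 (−0.16 to −0.12) and 0.01 (−0.01 to 0.03). Monocytes held 1263 (1209 to 1319) CPM in P-LC24 against 1179 (1131 to 1228) in P-HC24, and 1073 (1030.3 to 1118) in I-LC32 against 828 (773 to 887) in I-HC32. They were lowest in I-HC32, with log2 ratios of −0.10 (−0.19 to −0.01) in Prog and −0.37 (−0.49 to −0.26) in Int. Macrophages held 599.8 CPM in P-LC24 against 442 in P-HC24, and 476 in I-LC32 against 383 in I-HC32, with −0.44 (−0.54 to −0.34) and −0.31 (−0.41 to −0.22), and T cells 389 CPM in P-LC24 against 330.1 in P-HC24, and 316 in I-LC32 against 375 in I-HC32, with −0.24 (−0.31 to −0.16) and 0.24 (0.17 to 0.32). NK cells held 416 (381 to 454) CPM in P-LC24 against 334 (281 to 395) in P-HC24, and 362 (317 to 411) in I-LC32 against 524 (449 to 609) in I-HC32, and their ratio was below 0 in Prog, at −0.32 (−0.60 to −0.04), and above it in Int, at 0.53 (0.24 to 0.82). The Prog value fell under 1.2-fold with cells of mixed markers kept, as a mean over cells and relative to the median gene, at −0.18 to −0.20.

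Ly6k, best known from the testis, was low but was the member with the widest Int ratio in B cells. B cells held 4.81 (3.95 to 5.80) CPM in P-LC24 against 14.0 (12.8 to 15.2) in P-HC24, and 4.13 (3.54 to 4.79) in I-LC32 against 23.7 (22.4 to 25.1) in I-HC32, on 110, 540, 173 and 1224 UMIs. The libraries of both high cholesterol arms stood above both low cholesterol arms, with log2 ratios of 1.54 (1.24 to 1.85) in Prog and 2.52 (2.29 to 2.76) in Int. The UMIs came from 69, 315, 115 and 630 cells, of which 51, 182, 77 and 321 held exactly 1. At 2000 UMIs per cell, 0.772%, 2.59%, 0.513% and 3.78% of B cells had a Ly6k UMI. NK cells and monocytes had 0 UMIs in every library, and macrophages had 0, 8, 0 and 29, present in the same 2 libraries in which B cells were high, at 0.724 (0.312 to 1.43) and 2.03 (1.36 to 2.91) CPM. In the other 2, 3 UMIs in the few macrophages would be 1.95 and 1.38 CPM, and in the NK cells of I-HC32 9.20 CPM. The 0.724 CPM of P-HC24 macrophages was thus too low to be detectable in them. The 2.03 CPM of I-HC32 macrophages lay above both macrophage limits but under that of the NK cells. B-1-gated cells held 6.14 CPM in P-LC24 against 15.6 in P-HC24, and 4.06 in I-LC32 against 24.4 in I-HC32 and follicular-gated cells 3.92 CPM in P-LC24 against 11.8 in P-HC24, and 2.72 in I-LC32 against 17.1 in I-HC32. The intervals of the ratios overlapped between both gates, at 1.35 (0.85 to 1.88) and 1.59 (1.04 to 2.16) in Prog and 2.58 (2.24 to 2.95) and 2.65 (2.03 to 3.33) in Int. With the gates' levels held, the Int log2 ratio was 0.06, and with their shares held 2.47. B cells with lambda light chain held 11.3, 12.6, 3.90 and 31.3 CPM and those with kappa 4.24, 14.1, 4.21 and 23.1. The lambda values rest on 21, 35, 43 and 116 UMIs. T cells held 5.92 CPM in P-LC24 against 5.98 in P-HC24, and 2.92 in I-LC32 against 6.09 in I-HC32, on few cells. Gm17189, which overlaps Ly6k on the opposite strand, had 1 to 5 UMIs in a library.

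**Figure D5:**
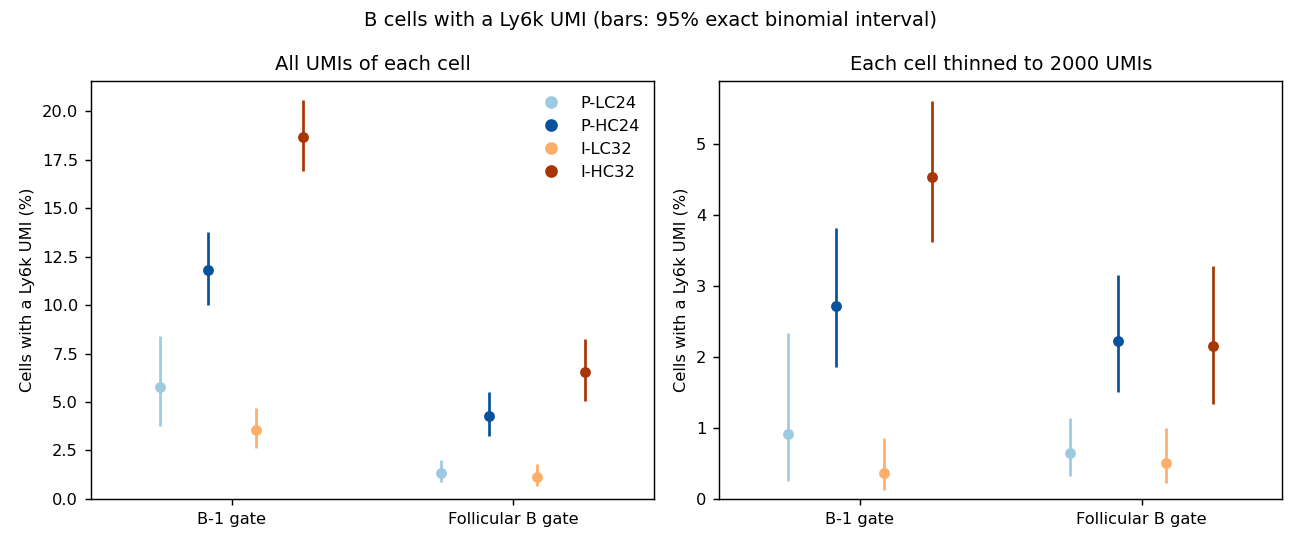
Percentage of B-1-gated and follicular-gated B cells with a Ly6k UMI (y axis, linear from 0), from all UMIs of each cell on the left and with each cell thinned to 2000 UMIs on the right. Points are the 4 libraries and bars 95% exact binomial intervals, and P-HC24 and I-HC32 stand above P-LC24 and I-LC32 in both gates.

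Ly6d, the ThB antigen of B lineage cells, was high in B cells at 1372 CPM in P-LC24 against 1505 in P-HC24, and 1539.9 in I-LC32 against 1299 in I-HC32. It was lowest in I-HC32, with log2 ratios of 0.13 (0.11 to 0.15) in Prog and −0.25 (−0.26 to −0.23) in Int. B-1-gated cells held 969 (944 to 994) CPM in P-LC24 against 1259 (1242 to 1276) in P-HC24, and 1589 (1571 to 1607) in I-LC32 against 1136 (1123 to 1148) in I-HC32, with 0.38 (0.34 to 0.42) and −0.48 (−0.51 to −0.46). Follicular-gated cells held 1531 CPM in P-LC24 against 1732 in P-HC24, and 1492 in I-LC32 against 1604 in I-HC32, with 0.18 (0.15 to 0.21) and 0.10 (0.07 to 0.14), so that both gates lay on opposite sides of 0 in Int. The other 4 classes held 4.58 to 36.6 CPM.

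Counts of members are read against all genes. A gene was compared where at least 10% of cells of either library had a UMI and both together held at least 100, and called where the ratio was at least 1.2-fold. Members that passed only through the library where they were high had to differ, so the counts are no support for a pattern of the family. In B cells 3 of 7 members were compared in Prog, of which 1 (Ly6a) was higher and 0 lower, where 15.2% and 44.4% of all genes compared were. In Int 4 were compared, 1 (Ly6k) was higher and 0 lower, against 12.9% and 7.13%. In T cells 3 were compared, with 0 called in Prog, against 11.3% higher and 46.2% lower of all genes. In Int Ly6a was higher and Ly6c2 lower, against 18.5% and 9.57%. In monocytes 3 were compared, 2 (Ly6c2 and Ly6a2) higher and 0 lower in Prog, against 19.2% and 35.8%, and 0 higher and all 3, with Ly6e, lower in Int, against 22.1% and 21.3%. In macrophages Ly6d was higher and Ly6a and Ly6e lower of 4 in Prog, against 16.3% and 49.1%, and Ly6e lower and 0 higher of 3 in Int, against 14.3% and 36.9%. For P-HC24 the Ly6d count of macrophages was 217, against 13 for P-LC24. Cd79a, a marker of the B cell gate, was detected in 21.7% and 15.9% of the same macrophages. The part of B cell RNA in the macrophage Ly6d call was not tested. Over all cells Ly6a was higher and Ly6c2 lower of 4 in Prog, against 16.5% and 47.5%, and Ly6c2 lower and 0 higher of 4 in Int, against 13.4% and 12.2%. At a mitochondrial limit of 5% the Ly6a value over all cells in Prog was 0.03, which ends that call. Of the other calls, Ly6a in T cells in Int fell under 1.2-fold as a mean over cells (0.16) and without scaling to depth (0.20). In macrophages in Prog, Ly6d was −0.61 as a mean over cells and Ly6a 0.24 with cells of mixed markers kept, and Ly6e was −0.19 in Prog and −0.17 in Int relative to the median gene. Genes as a whole leaned lower in Prog, with a median log2 ratio of −0.23 over all cells and −0.01 in Int, and the ratios above are not shifted for it.

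Interferon-stimulated genes were set beside the members, since several members respond to interferons. Of the 16 genes listed, in monocytes 0 of the 10 compared members passed 1.2-fold upwards and 9 downwards (median log2 ratio −0.85, and 0.00 over all genes compared) in Int, and 1 was higher and 2 lower of 11 in Prog. Ifi27l2a stood at −1.0 (−1.10 to −0.89) and Bst2, the virus-tethering protein tetherin, at −0.56 (−0.85 to −0.27) in Int. In macrophages, in Int, 0 of the 14 compared members passed 1.2-fold upwards and 14 downwards (median log2 ratio −0.69, and −0.15 over all genes compared). In Prog 5 were higher and 1 lower of 13. T cells had 3 higher and 2 lower of 11 in Prog and 4 and 5 of 12 in Int. B cells had 4 higher and 1 lower of 6 in Prog and 2 and 3 of 8 in Int. For all genes compared, the shares higher and lower in Prog were 19.2% and 35.8% in monocytes, 16.3% and 49.1% in macrophages, 11.3% and 46.2% in T cells and 15.2% and 44.4% in B cells. In Int they were 22.1% and 21.3%, 14.3% and 36.9%, 18.5% and 9.57%, and 12.9% and 7.13%.

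The other genes of the chromosome 15 cluster were scarce. For the 15 counted, none passed the filter for a comparison over all cells. In monocytes 1 of them, Ly6i, passed it in Prog, with a log2 ratio of −1.33 (−1.81 to −0.87), and 0 did in Int. Ly6c2 and Ly6a2 were higher in that comparison, where 35.8% of all genes compared were lower. Lynx1 had 199, 354, 377 and 399 UMIs over all cells, Ly6i had 119, 57, 56 and 25 in monocytes, and Ly6g, the neutrophil antigen, 61, 83, 16 and 83 over all cells. The lncRNA Gm28068, on the strand opposite Ly6a, had 48 to 87 UMIs in a library.

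The genes most like each member were found over 44 profiles, 11 gated subsets in 4 libraries, by Pearson correlation of log2(CPM + 1) among 10352 genes. Profiles of a library share its cells and depth, so the r values are a description. Nearest to Ly6c2 were Hopx (r = 0.87), Higd1a (r = 0.84), Abracl (r = 0.84), Dnajc15 (r = 0.82) and Klrk1 (r = 0.82), and to Ly6c1 Cd40lg (r = 0.96), Cd4 (r = 0.87), Siah3 (r = 0.84), Gpr83 (r = 0.83) and A630023P12Rik (r = 0.80). For Ly6a2 they were Sulf2 (r = 0.88), Olfm1 (r = 0.86), Aoah (r = 0.84), Gm20528 (r = 0.83) and Serf2 (r = 0.83), and for Ly6a Cd200 (r = 0.85), Cxcr5 (r = 0.85), Bend5 (r = 0.84), Mif4gd (r = 0.84) and Ralgps2 (r = 0.84). For Ly6e they were Cd83 (r = 0.91), Rel (r = 0.90), Rftn1 (r = 0.89), Rnase6 (r = 0.89) and Rubcnl (r = 0.88), for Ly6k Gm16158 (r = 0.81), Ly6a (r = 0.76), BE692007 (r = 0.76), Chst10 (r = 0.75) and Fam169b (r = 0.75), and for Ly6d Cd79a (r = 0.97), 2010309G21Rik (r = 0.96), Ms4a1 (r = 0.96), Gm11690 (r = 0.96) and Ebf1 (r = 0.95). Cd4, Cd79a and Ms4a1 were used in the gates.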

How the data were processed

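Single-cell suspensions of aspirated liver cells from 4 conditions were sequenced as 1 library each, with 12 aspirates from 3 mice pooled. The deposited files hold whole-number UMI counts per gene and barcode, made by the authors with Cell Ranger 9.0.1 on GRCm39 (Seurat 5.3 is also named in the submitters' processing notes), before the study's own correction for free RNA. Cells with at least 500 UMIs, at least 300 genes and at most 10% mitochondrial UMIs were kept, and the 212 to 440 cells per library with the highest Scrublet doublet scores (scanpy 1.11.5, Python 3.11.15) were removed, their number set by the cells captured. Classes needed at least 3 marker UMIs (5 for macrophages), with markers of other classes at most 20% of their own.

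CPM were computed on summed counts, and exact Poisson, binomial and Clopper-Pearson intervals with scipy 1.17.1, without p-values. Scripts were tested on simulated data. The 7 members, the gates and the gene lists were chosen with earlier results of these data known. List members named in the text are from the 3 with the highest mean CPM in the class (a gene of the interferon list and a marker of the naive gates are not reported here by name), and the 5 most alike genes were taken by Pearson r. Of 33696 gene identifiers, 33185 were found in the GENCODE annotation of GRCm39, which gave positions and sequences. Alternatives were the mitochondrial limit, doublet removal, the gates, scaling and free RNA.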

Additional observations from a re-analysis of the deposited data

Results flagged for a closer look

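Ly6c2 in monocytes had a log2 ratio of 0.69 in Prog and −1.62 in Int, and was singled out because the libraries moved in opposite directions. Ly6a2 in monocytes did the same, at 1.14 and −1.63. With the shares of the 3 kinds of monocyte held, Ly6c2 was 0.52 in Prog and −1.34 in Int, and Ly6a2 0.99 and −1.39. Ly6e in NK cells went from −0.32 in Prog to 0.53 in Int, and its Prog value fell under 1.2-fold in 3 alternatives. With 1 library per condition the difference between Prog and Int was not tested for any of the 3.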

How the results depend on the processing

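Of 593 recomputed log2 ratios, 475 lay within the counting interval of the reported one and 56, from 30 of 65 ratios, had the other sign. For 22 of these 30 the reported ratio was under 1.2-fold. Of 40 ratios of at least 1.2-fold, 32 kept their direction under every alternative and 8 did not. Over all cells, Ly6c2 in Prog was −0.32 with a mitochondrial limit of 5%, −0.50 as a mean over cells, −0.38 without scaling and −0.45 relative to the median gene, and in Int −2.89, −1.95 and −2.16 for the first 3. In T cells, Ly6c2 in Prog was −0.41 at 5%, −0.13 without scaling and 0.25 relative to the median gene, and in Int −1.58 without scaling. Ly6a in T cells in Prog was 0.28 relative to the median gene and −0.12 with 5% free RNA subtracted, and in Int 0.55 with cells of mixed markers kept and 0.16 as a mean over cells. The cause of these shifts was not tested.

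Among ratios of at least 1.2-fold, those with the other sign were, with mixed-marker cells kept, Ly6a in macrophages in Prog (0.24) and Ly6d in monocytes in Int (−0.039). As a mean over cells they were Ly6c1 in B cells in Int (−0.0073) and Ly6d in macrophages in Prog (−0.61). At the 5% mitochondrial limit they were Ly6c1 over all cells (0.29) and Ly6c2 in B cells (0.51), both in Prog. Without scaling it was Ly6c2 in NK cells in Prog (−0.012), and without doublet removal Ly6d in NK cells in Prog (−0.20).

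Over all cells, Prog had 1163 genes called higher and 3359 called lower, and Int had 1034 and 942. With 20 UMIs and no filter on the share of cells, these were 2969, 8894, 3494 and 4650, and at 1.5-fold 310, 1338, 370 and 166. No paired analysis was possible because each condition was 1 library and the labels number no replicates. NK cells and monocytes were limited by their number of cells, and subtraction of free RNA and other gates could not be applied to all cells together.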
